A study of Homo sapiens with 32 samples.

Results

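The AP-1 factors FOS, FOSB, FOSL1, FOSL2, JUN, JUNB, JUND and ATF3 were followed at the level of their transcripts in human diffuse large B-cell lymphoma lines. The members are the 8 rows, of 25066 features, that carry one of these symbols. RNA was sequenced from TMD8, an activated B cell type line, and DOHH2, which is of the germinal centre type. Cells of both lines, all Cas9 engineered, received 500 nM CSKi or the vehicle DMSO and were harvested after 1, 3, 6 or 24 h. CSKi is, by the series title, an inhibitor of CSK, the kinase that holds Src family kinases inactive, and the labels give no compound name. Each of the 16 groups of line, treatment and time held 2 libraries, for 32 in all, and each lymphoma type was represented by 1 line. The titles call duplicates bio replicates and say no more, so p-values measure only the spread between these samples, which may be technical. In bulk samples fewer cells of a type and less RNA per cell cannot be told apart.

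AP-1 is a dimer of basic leucine zipper (bZIP) proteins that binds short palindromic DNA sites. JUN proteins pair with themselves, with FOS proteins or with ATF proteins, whereas FOS proteins need a partner such as a JUN protein to bind DNA. FOS, FOSB, JUN and JUNB are classical immediate early genes, transcribed within minutes of signalling through MAP kinases, and B cell receptor signalling is one such input. ATF3 is a stress-induced member, and JUND is the member most often transcribed at a steady level in resting cells.

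Because JUN and JUND moved in opposite directions in TMD8 and JUNB was the member called at 1 h in DOHH2, their promoters are shown. The 250 bases upstream of the RefSeq start (GRCh38.p14) run 5′ to 3′ on the gene's strand. JUN is on the minus strand at chr1:58784048-58784297, JUND on the minus strand at chr19:18281623-18281872 and JUNB on the plus strand at chr19:12791236-12791485. Capitals mark TGACNTCA, the 8-base AP-1 and ATF type motif, wherever it lies on either strand.
JUN: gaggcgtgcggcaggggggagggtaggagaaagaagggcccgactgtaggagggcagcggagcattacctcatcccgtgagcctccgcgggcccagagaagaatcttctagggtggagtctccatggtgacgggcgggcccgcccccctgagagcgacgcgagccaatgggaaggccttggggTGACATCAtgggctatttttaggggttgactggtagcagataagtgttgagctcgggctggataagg
JUND: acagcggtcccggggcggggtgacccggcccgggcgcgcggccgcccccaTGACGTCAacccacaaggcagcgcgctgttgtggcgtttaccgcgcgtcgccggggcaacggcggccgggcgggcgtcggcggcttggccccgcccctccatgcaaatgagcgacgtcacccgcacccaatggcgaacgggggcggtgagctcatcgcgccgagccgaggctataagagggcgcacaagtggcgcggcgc
JUNB: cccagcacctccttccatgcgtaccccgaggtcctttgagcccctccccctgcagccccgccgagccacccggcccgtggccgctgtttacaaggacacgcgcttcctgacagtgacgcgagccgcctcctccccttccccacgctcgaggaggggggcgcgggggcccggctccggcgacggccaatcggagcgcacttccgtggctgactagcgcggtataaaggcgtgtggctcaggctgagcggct
RefSeq promoters were found for 7 of the 8 members, with 2 for ATF3 and none given for FOSL1. The JUN window held TGACATCA 67 bases before the start, the JUND window the palindrome TGACGTCA 200 bases before it, and 1 of the 2 ATF3 windows TGACATCA 123 bases before it. The windows of FOS, FOSB, FOSL2 and JUNB held no TGACNTCA. Over 35116 promoters of that length, 6.87% held TGACNTCA and 1.65% held TGACGTCA, which it includes. TGANTCA, the 7-base AP-1 motif, was in 6.57% of all promoters and in no member's window, as were the CArG box of SRF (1.16%) and GCGNGGGCG of EGR factors (8.41%). The shorter TGACG, which TGACGTCA contains, lay in the windows of FOS, FOSB, FOSL2, JUN, JUNB and JUND and in 21.2% of all promoters. A match is a description of these letters and shows no binding, and a missing match says only that the letters are not in the window.

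Libraries held 12273442 to 24907030 mapped reads. The deposited log2 values were tested with limma over the 12000 features of highest mean in a fit, with Benjamini-Hochberg adjustment and calls at an adjusted p under 0.05. This filter kept FOSL2, JUN, JUNB, JUND and ATF3 in TMD8 and in the fit of both lines, and these 5 and FOSB in DOHH2. FOS and FOSL1 were too low to be tested and are given by reads. All 6 B cell markers were present in both lines. The DOHH2 libraries at 24 h stood apart from all others: the SD of the log2 difference between duplicates was 0.328 for DMSO and 0.381 for CSKi, against 0.170 to 0.226 in the other 14 groups. The library labelled DMSO replicate 1 lay nearer to that labelled CSKi replicate 2 (0.218), and DMSO replicate 2 nearer to CSKi replicate 1 (0.275), than either did to its own duplicate. DOHH2 results are therefore given with and without these 4 libraries. The sources used here do not say whether counting used strand, so JUNB and HOOK2, FOSB and ERCC1, and FOSL2 and FLJ31356, which overlap on opposite strands, may share reads.

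In vehicle, the lines carried AP-1 members at different levels, with JUN and ATF3 higher in TMD8 than in DOHH2. On the RPKM scale (reads scaled to library size, RPM, and divided by transcript length in kilobases), JUND was highest in both, at 39.0 ± 8.6 in TMD8 (SD, n = 8) and 67.7 ± 8.4 in DOHH2 (SD, n = 6, without 24 h). In TMD8, ATF3 followed at 33.0 ± 3.4, JUNB at 13.2 ± 2.1 and JUN at 10.4 ± 3.2 (SD, n = 8). The ranges of neighbours in this order overlapped: JUND lay from 29.9 to 52.2 and ATF3 from 29.5 to 38.1, while JUNB lay from 11.2 to 16.7 and JUN from 8.32 to 15.5. The ATF3 level rests on the 858-base transcript of the deposited accession, and with the longest annotated transcript of 2103 bases it would be 13.5.

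In DOHH2, JUNB came second at 26.3 ± 2.5, then ATF3 at 6.74 ± 2.0 and JUN at 1.39 ± 0.37 (SD, n = 6), and these ranges did not overlap. With the longest transcript ATF3 would be at 2.75 in DOHH2, and its lowest value of 1.66 would lie within the JUN range of 0.955 to 1.86. The other 4 members were low in both lines on the same per-length scale. FOSL2 had a mean of 0.247 in TMD8 (n = 8, with 24 h) and 0.215 in DOHH2 (n = 6, without 24 h), and FOSL1 of 0.187 and 0.0980. FOS had 0.0822 and 0.240, and FOSB 0.0653 and 0.412, over the same libraries. At 1, 3 and 6 h alone the TMD8 means were 0.196 for FOSL2, 0.1655 for FOSL1, 0.0616 for FOS and 0.0788 for FOSB. The FOSL2 mean was then lower in TMD8 than in DOHH2. FOSB and FOS were thus the members of lowest level in TMD8, and in DOHH2 the lowest was FOSL1.

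Of the 5 members tested between the lines in vehicle, 4 were called, where 89.1% of all features were. JUN, the founding transforming member of the family, was 8.25-fold higher in TMD8 (log2 difference 3.04 ± 0.08, SE of the fit here and below, limma adjusted p = 1.53e-20). ATF3 was 5.26-fold higher in TMD8 (2.40 ± 0.09, adjusted p = 3.22e-17). JUNB was 2.03-fold lower in TMD8 (-1.02 ± 0.04, adjusted p = 2.88e-17) and JUND 1.66-fold lower (-0.73 ± 0.08, adjusted p = 9.39e-09). FOSL2 was not called (0.27 ± 0.14, adjusted p = 0.0603), and its difference was -0.06 without the 24 h libraries and -0.11 after quantile normalization. In the fit of all features with a read, which called 67.4% of them, FOSB was lower in TMD8 (-2.86) and FOSL1 higher (1.24, adjusted p = 0.0131), while FOS was not called (-0.60, adjusted p = 0.109).

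TMD8 vehicle cultures changed over 24 h. All 5 tested members differed over time in DMSO by the F test, as did 58.4% of features. JUN lay at 9.77 and 9.70 at 1 h, 9.67 and 9.63 at 3 h, 9.76 and 9.69 at 6 h, and 10.55 in both libraries at 24 h (log2 values here and below, replicates 1 and 2). It thus kept within a narrow range to 6 h and was then 1.76-fold higher at 24 h than at 1 h (0.82 ± 0.07, adjusted p = 8.61e-10). JUND, the member that restrains proliferation in several cell types, went the other way, from 11.34 and 11.38 at 1 h through 10.99 and 11.00 at 3 h and 10.73 and 10.66 at 6 h to 10.68 and 10.57 at 24 h. Its fall was called against 1 h at 3 h (-0.37 ± 0.06, adjusted p = 3.05e-05, 19.4% of features called), 6 h (-0.66 ± 0.06, adjusted p = 3.52e-09, 23.5%) and 24 h (-0.74 ± 0.06, adjusted p = 7.13e-11, 46.7%).

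FOSL2, the FOS family member also called FRA2, was 2.26-fold higher at 24 h than at 1 h in TMD8 vehicle (1.18 ± 0.28, adjusted p = 0.00113), from 18 and 19 reads to 41 and 52 reads. JUNB was 1.37-fold higher at 24 h (0.46 ± 0.09, adjusted p = 0.000193). The F test call of FOSL2 was lost without DMSO replicate 1 of 24 h (adjusted p = 0.0654). ATF3 was lower at 3 h (-0.32 ± 0.07, adjusted p = 0.00271, and 0.0584 without DMSO replicate 2 of 3 h) and 6 h (-0.35 ± 0.07, adjusted p = 0.000834) and not called at 24 h (-0.12 ± 0.07, adjusted p = 0.178).

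**Figure D1:**
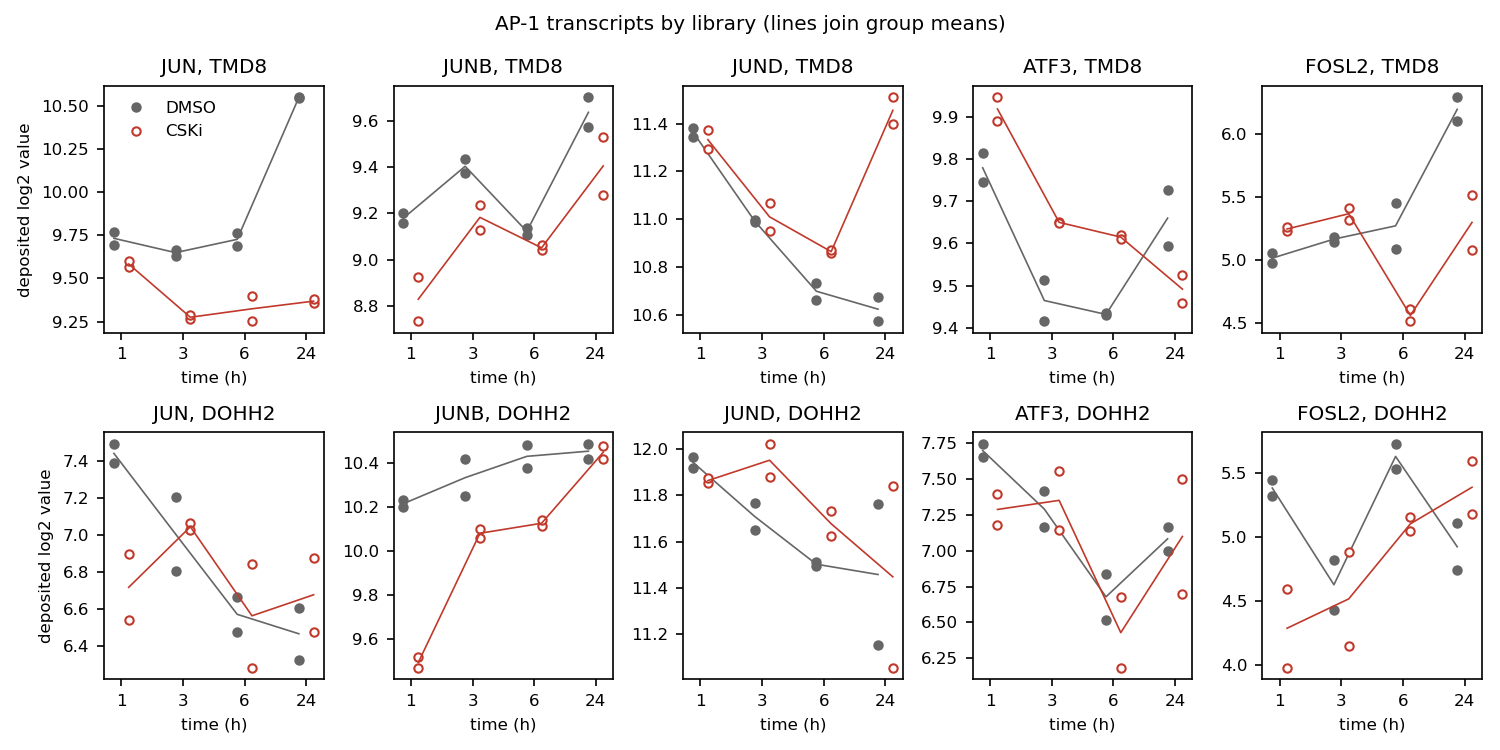
Deposited log2 values (vertical axis, a separate range per panel) of the 5 members tested in both lines, against time in h, for TMD8 (top) and DOHH2 (bottom). Points are single libraries, filled for DMSO and open for CSKi, and lines join the means of 2 libraries; JUN in TMD8 at 24 h lies at 10.55 in both DMSO libraries and at 9.36 and 9.38 under CSKi.

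In TMD8, JUN was lower under CSKi from 3 h on, and at 24 h JUND was higher than in vehicle. At 1 h limma called no member of 5, and 6 of 12000 features (0.05%), with 579 features at an unadjusted p under 0.05, and voom on the recovered reads called no member either. JUNB lay at 9.16 and 9.20 in DMSO and at 8.92 and 8.73 under CSKi at 1 h, so the groups did not overlap, but the difference of -0.35 ± 0.09 had an unadjusted p of 0.000664 and an adjusted p of 0.42. JUN was among the members with both CSKi values below both DMSO values as well, at 9.56 and 9.60 under CSKi (-0.15 ± 0.07, adjusted p = 0.997). In all 2 of 5 tested members lay wholly below vehicle, where 15.8% of features did, and 2, FOSL2 and ATF3, wholly above it, where 15.6% did.

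At 3 h JUN was the member called, where 4.73% of features were. It lay at 9.26 and 9.29 under CSKi against 9.67 and 9.63 in DMSO (-0.37 ± 0.07, 1.30-fold lower, adjusted p = 0.00112). Both CSKi libraries were below both DMSO libraries, as they were for 22.8% of features. At 6 h it lay at 9.25 and 9.40 against 9.76 and 9.69 (-0.40 ± 0.07, 1.32-fold lower, adjusted p = 0.000217, 12.6% of features called). JUN was not called at either time in the fit that pools all 32 libraries (adjusted p = 0.35 and 0.17). JUND was called at 6 h as well, 1.12-fold higher (0.17 ± 0.06, adjusted p = 0.0483), but in none of the 4 fits that left out 1 library of that time (adjusted p from 0.0842 to 0.319). FOSL2 lay at 5.46 and 5.09 in DMSO and 4.61 and 4.52 under CSKi at 6 h without being called (-0.71 ± 0.28, adjusted p = 0.0996).

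At 24 h all 5 tested members were called, where 54% of all features were. JUN stood at 9.36 and 9.38 under CSKi against 10.55 in both DMSO libraries, 2.27-fold lower (-1.18 ± 0.07, adjusted p = 5.13e-13). JUND stood at 11.51 and 11.40 against 10.68 and 10.57, 1.78-fold higher (0.83 ± 0.06, adjusted p = 3.66e-12). Neither pair of groups overlapped, where 35% of all features lay wholly below vehicle and 38.6% wholly above it. The calls of JUN and JUND both held in every fit without 1 library of that time. The 24 h values under CSKi were closer to the 1 h values of the same treatment (JUN 9.56 and 9.60, JUND 11.37 and 11.29) than the 24 h vehicle values were to 1 h vehicle. JUND under CSKi did not stay at its 1 h level in between. It lay lower, at 11.07 and 10.95 at 3 h and at 10.86 and 10.87 at 6 h, before the higher 24 h values.

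The other 3 members were also lower at 24 h in TMD8, by calls that single libraries decided. FOSL2 had 17 and 23 reads under CSKi against 41 and 52 in DMSO (-0.90 ± 0.28, 1.86-fold lower, adjusted p = 0.00834), and was not called without DMSO replicate 1 (-0.80, adjusted p = 0.0647) or CSKi replicate 1 (-0.68, adjusted p = 0.114). JUNB lay at 9.53 and 9.28 against 9.70 and 9.57 (-0.23 ± 0.09, adjusted p = 0.0327), and was not called without DMSO replicate 1 (-0.17, adjusted p = 0.231) or CSKi replicate 2 (-0.10, adjusted p = 0.398). ATF3 lay at 9.46 and 9.52 against 9.73 and 9.59 (-0.17 ± 0.07, adjusted p = 0.0491), and was not called without DMSO replicate 1 (-0.10, adjusted p = 0.354) or CSKi replicate 1 (-0.14, adjusted p = 0.206). Over the other alternatives the adjusted p ran from 0.0123 to 0.0968 for JUNB and from 0.0152 to 0.492 for ATF3. Beside these values, the summed level of 6 fibroblast and epithelial markers at 24 h was 19.7 and 20.2 RPM in the DMSO libraries and 48 and 52.5 in the CSKi libraries. Of these 6 markers 3 reached a mean of 1 RPM in TMD8, COL1A1, COL1A2 and KRT8. Most of the sum was COL1A1, with 222 and 290 reads in DMSO and 640 and 549 under CSKi. DCN had 5 and 14 reads in DMSO and 18 and 18 under CSKi, while EPCAM and KRT18 had 0 reads in these 4 libraries. The part of these transcripts in the 24 h results was not tested. None of 6 T and NK cell markers and none of 5 myeloid markers reached a mean of 1 RPM in TMD8, and in DOHH2 NKG7 and LYZ did.

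The response of 4 of the 5 members changed over time in TMD8 by the F test, as did 39.4% of features. The F test call of FOSL2 was lost with all features with a read (adjusted p = 0.0795) and without DMSO replicate 1 of 1 h (0.0546), CSKi replicate 1 of 3 h (0.0535), DMSO replicate 1 of 6 h (0.063), or DMSO replicate 1 (0.0839), DMSO replicate 2 (0.0537) or CSKi replicate 1 (0.0944) of 24 h. That of ATF3 was lost without DMSO replicate 1 (0.143) or CSKi replicate 1 (0.0667) of 24 h. Between 1 h and 24 h the response moved for JUN (-1.03 ± 0.10, adjusted p = 9.6e-09), JUND (0.86 ± 0.08, adjusted p = 3.45e-09), FOSL2 (-1.13 ± 0.39, adjusted p = 0.0229) and ATF3 (-0.31 ± 0.10, adjusted p = 0.0164), against 41.9% of features. ATF3 under CSKi lay above vehicle at 1, 3 and 6 h in both libraries, with differences of 0.14 to 0.19 that were not called, and below it at 24 h. Over all features, 15.6, 27.8 and 31.8% lay wholly above vehicle at 1, 3 and 6 h, and 35% wholly below it at 24 h. ATF3 was not called in this contrast without DMSO replicate 1 (-0.24, adjusted p = 0.0943) or CSKi replicate 1 (-0.27, adjusted p = 0.0503) of 24 h, or without DMSO replicate 2 (-0.27, adjusted p = 0.0659) or CSKi replicate 2 (-0.28, adjusted p = 0.053) of 1 h. FOSL2 was not called without DMSO replicate 1 (-1.03, adjusted p = 0.0759) or CSKi replicate 1 (-0.91, adjusted p = 0.114) of 24 h, or without DMSO replicate 1 of 1 h (-1.09, adjusted p = 0.0555), nor with all features with a read (adjusted p = 0.0505). The response of JUNB did not pass (0.12 ± 0.13 between 1 and 24 h, adjusted p = 0.478).

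**Figure D2:**
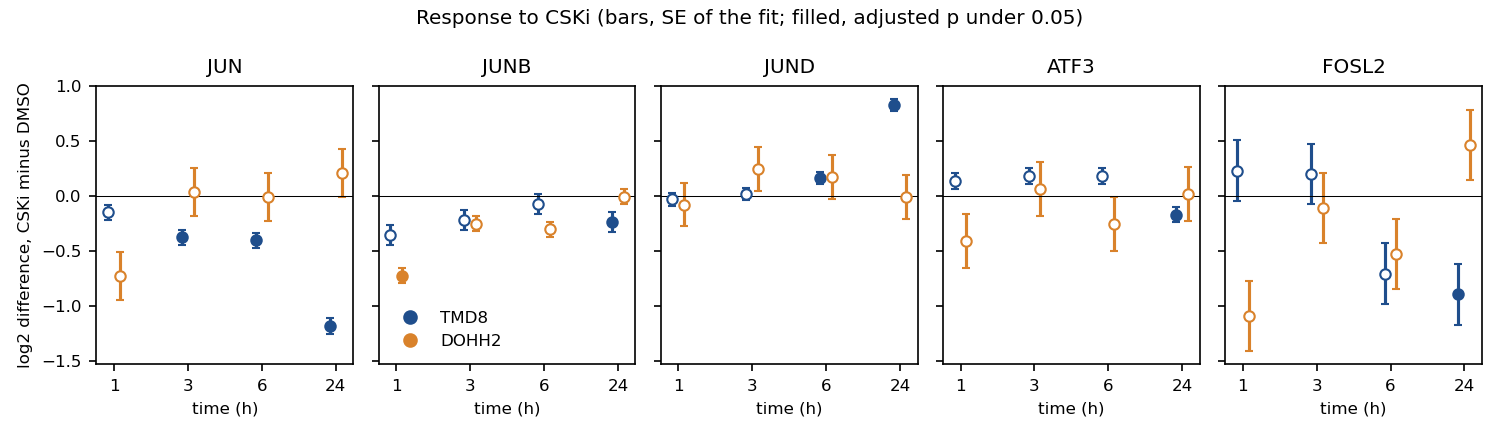
Log2 difference between CSKi and DMSO (vertical axis) against time in h for 5 members, in TMD8 (blue) and DOHH2 (orange). Bars are the SE of the fit and filled points passed an adjusted p under 0.05. JUN falls to -1.18 and JUND rises to 0.83 in TMD8 at 24 h, and JUNB lies at -0.72 in DOHH2 at 1 h. No DOHH2 point is filled at 24 h, where libraries lie nearer to the other label than to their duplicates.

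Per length, the makeup of the JUN genes of TMD8 shifted accordingly. In vehicle, JUN made up 12.6 and 11.8% of the summed level of JUN, JUNB and JUND at 1 h and 24.1 and 25.5% at 24 h, while JUND went from 71.3 and 72.0% to 49.9 and 49.3%. Under CSKi at 24 h the JUN share was 8.6 and 9.5% and the JUND share 72.6 and 73.2%. The vehicle shares at 24 h lay outside the range of all other TMD8 libraries, in which JUN held 8.6 to 16.8%. These shares are a description and were not tested.

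**Figure D3:**
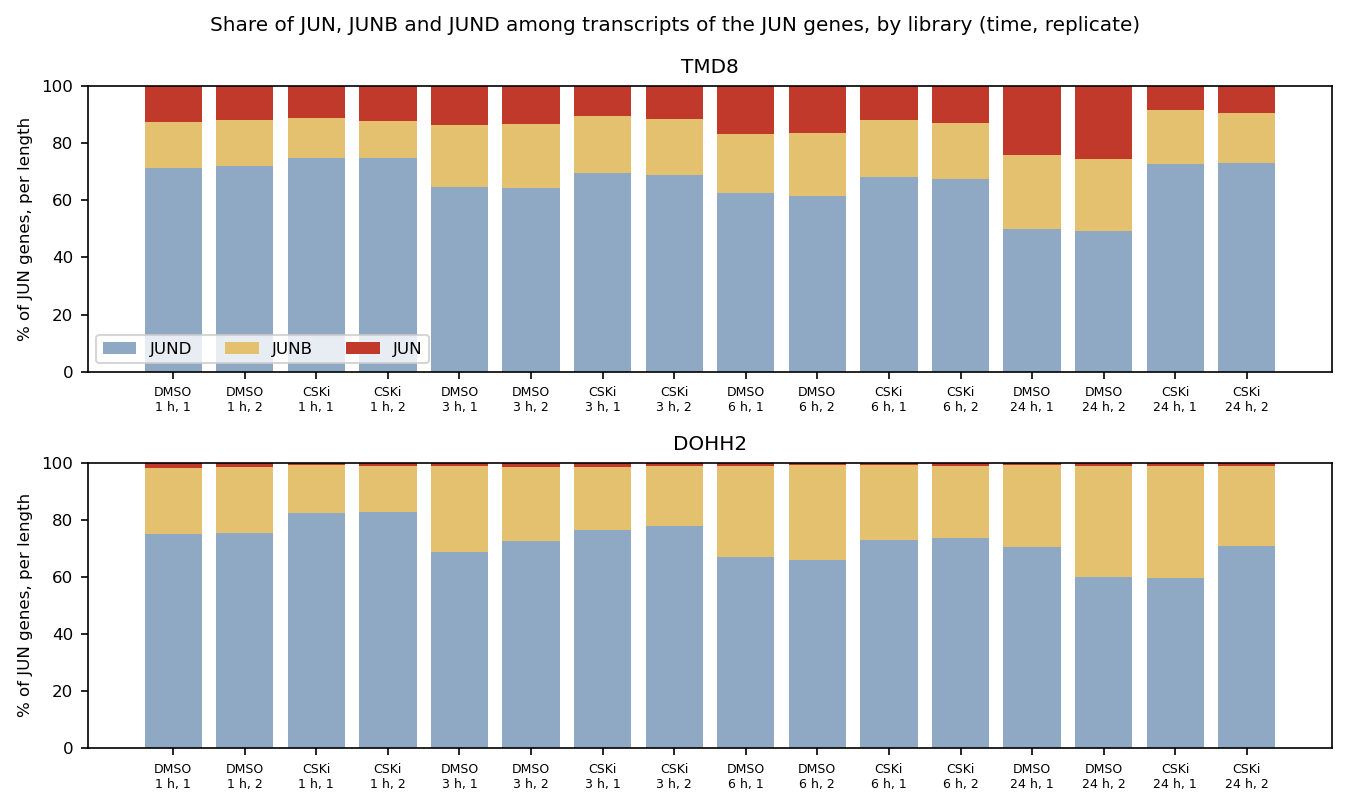
Share (%) of JUND, JUNB and JUN in their summed per-length level, 1 bar per library, labelled by treatment, time and replicate, for TMD8 (top) and DOHH2 (bottom). The red JUN share is 24.1 and 25.5% in TMD8 DMSO at 24 h and 8.6 and 9.5% under CSKi, and at most 1.8% in DOHH2.

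In DOHH2, JUNB was lower under CSKi at 1 h. JUNB lay at 10.20 and 10.23 in DMSO and 9.52 and 9.47 under CSKi, 1.65-fold lower (-0.72 ± 0.07, adjusted p = 9.71e-05), and was the 1 member of 6 called where 0.375% of features were. The call held in each of the 4 fits without 1 library of that time (adjusted p from 0.00262 to 0.00441). JUNB fell from 23.2% of the summed level of the JUN genes in both DMSO libraries to 16.7 and 16%. In all, 5 of the 6 tested members had both CSKi values below both DMSO values at 1 h, where 22.1% of features did, and none had both above, where 21.8% did.

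Among these, JUN lay at 7.50 and 7.39 in DMSO against 6.54 and 6.90 (-0.73 ± 0.22, adjusted p = 0.461). FOSL2 had 33 and 23 reads against 19 and 7 (-1.09 ± 0.32, adjusted p = 0.403), and ATF3 lay at 7.65 and 7.75 against 7.18 and 7.40 (-0.41 ± 0.25, adjusted p = 0.991). JUND lay at 11.92 and 11.96 against 11.86 and 11.87 (-0.08 ± 0.20), and FOSB overlapped. Without the 24 h libraries, which widen the spread of the fit, 2.05% of features were called, and JUN joined JUNB (-0.73 ± 0.19, adjusted p = 0.0388).

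At 3 and 6 h no member was called in DOHH2 with the 24 h libraries in the fit, where limma called 2.62% and 0.883% of features, with 1808 and 1598 features at an unadjusted p under 0.05. JUNB lay at 10.06 and 10.10 under CSKi against 10.42 and 10.25 at 3 h (-0.25 ± 0.07, adjusted p = 0.0712) and at 10.11 and 10.14 against 10.38 and 10.48 at 6 h (-0.30 ± 0.07, adjusted p = 0.0569), below vehicle in every library. JUND lay above vehicle in every library, at 11.88 and 12.02 against 11.65 and 11.77 at 3 h and at 11.62 and 11.73 against 11.49 and 11.51 at 6 h. Over all features, 28.1% lay wholly below vehicle and 26.6% wholly above it at 3 h, and 26.4 and 26.6% at 6 h. Without the 24 h libraries both JUNB and JUND were called at 3 h (JUNB -0.25 ± 0.06, adjusted p = 0.00663, and JUND 0.24 ± 0.05, adjusted p = 0.000995, with 14.5% of features called). Both were called at 6 h too (JUNB -0.31 ± 0.06, adjusted p = 0.00131, and JUND 0.18 ± 0.05, adjusted p = 0.0171, with 13.6%). Voom on the recovered reads called none of the 6 members at 3 h and 1 at 6 h, and its share of all features is not given here.

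At 24 h limma called 0 of 12000 features in DOHH2, 378 being at an unadjusted p under 0.05. Voom on recovered reads called none of the members. JUND lay at 11.76 and 11.16 in DMSO and 11.05 and 11.84 under CSKi, so that the library labelled DMSO replicate 1 matched CSKi replicate 2, and DMSO replicate 2 matched CSKi replicate 1. The JUNB share of the JUN genes followed the same pairs, at 28.5% in DMSO replicate 1 and 28.1% in CSKi replicate 2, and at 38.7% in DMSO replicate 2 and 39.2% in CSKi replicate 1. FOSB had 4 and 21 reads in DMSO against 19 and 20. No direction is drawn from these libraries.

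DOHH2 vehicle cultures also moved. JUN, JUNB and ATF3 differed over time (F test, adjusted p = 0.0135, 0.0481 and 0.0325, 29.3% of features). Without the 24 h libraries all 6 tested members did (52.9%). The F test calls of JUNB and ATF3 were lost with all features with a read (adjusted p = 0.056 and 0.0887) and with no variance trend (0.0606 and 0.0628). All 3 F test calls were lost without either DMSO library of 1 h, and those of JUNB and ATF3 without other single libraries as well. At 6 h against 1 h, ATF3 was 2.03-fold lower (-1.02 ± 0.25, adjusted p = 0.0107), JUN 1.83-fold lower (-0.87 ± 0.22, adjusted p = 0.0133) and JUNB 1.16-fold higher (0.22 ± 0.07, adjusted p = 0.0378), where 21.6% of features were called. No member was called at 3 h (13.9%) by limma, though 3430 features had an unadjusted p under 0.05. Without the 24 h libraries JUND was also called, at 3 h (-0.23, adjusted p = 0.000696, 33.8% of features) and 6 h (-0.44, adjusted p = 1.48e-07, 43.7%). The 6 h calls of JUN and JUNB were lost without any 1 of the 4 DMSO libraries of 1 and 6 h (-0.78 to -0.97 for JUN and 0.16 to 0.27 for JUNB). The ATF3 call was lost without DMSO replicate 1 (-1.07) or 2 (-0.97) of 1 h or replicate 2 of 6 h (-0.86).

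FOS, the partner that gave the family its name, was at a trace level. In TMD8 it had 0 to 4 reads per library except for 10 in 1 DMSO library at 24 h. It had 0 reads in both CSKi libraries at 3 h, which allows up to 0.177 and 0.172 RPM (3 reads, counting error only), against 1 read each in DMSO. In DOHH2 vehicle it had 27 and 13 reads at 1 h, 9 and 4 at 3 h, 5 and 2 at 6 h, and 0 and 1 at 24 h, where 0 reads allow up to 0.230 RPM. In the fit of all features with a read, the DOHH2 vehicle fall was called at 6 h (-2.78 ± 0.54, adjusted p = 0.00929, with 10.4% of features called), and this fit called FOS in no CSKi contrast. At 1 h under CSKi FOS had 13 and 9 reads in DOHH2, or 0.733 RPM at most against at least 0.897 in DMSO.

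FOSB had 46 and 35 reads in DOHH2 vehicle at 1 h and 46 and 23 under CSKi, and its groups overlapped at 1, 3, 6 and 24 h. In TMD8 it had 1 to 10 reads per library, and in vehicle it went from 9 and 8 reads at 1 h to 2 and 1 at 24 h, a fall that the fit of all features called (-2.73 ± 0.82, adjusted p = 0.0274, with 25.4% of features called). FOSL1, also called FRA1, had 1 to 8 reads per library in TMD8 and 0 to 8 in DOHH2. It had 0 reads in DOHH2 DMSO replicate 1 at 3 and 6 h, which allows up to 0.151 and 0.149 RPM. No CSKi contrast of FOSL1, or of FOSB in TMD8, was called in the fit of all features with a read.

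**Figure D4:**
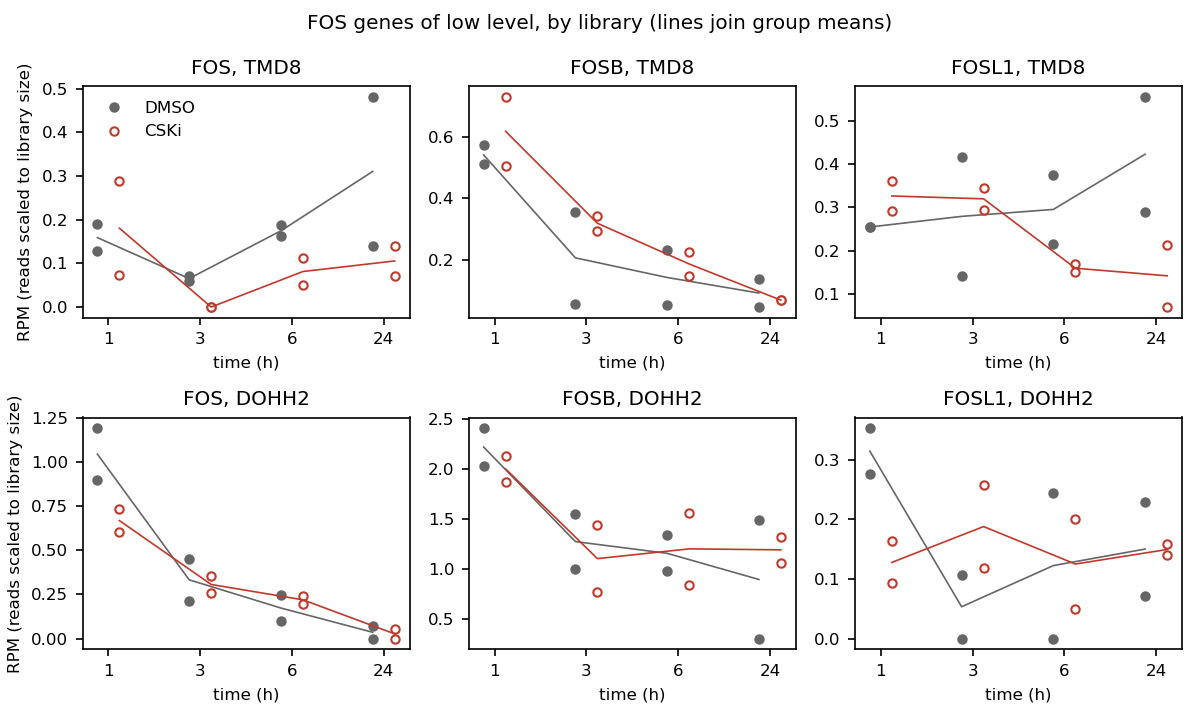
Reads scaled to library size (RPM, vertical axis, a separate range per panel) of FOS, FOSB and FOSL1 against time in h, for TMD8 (top) and DOHH2 (bottom), filled for DMSO and open for CSKi, with lines through the means of 2 libraries. FOS in DOHH2 goes from 27 and 13 reads at 1 h to 0 and 1 at 24 h in vehicle.

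The difference between the responses of the lines was tested directly. No member of 5 was called at 1 h, 3 h or 6 h, where limma called 0.142, 1.26 and 2.08% of features and 536, 1401 and 1354 features had an unadjusted p under 0.05, and voom called no member either. At 1 h the values for JUNB were 0.37 ± 0.11 (TMD8 minus DOHH2, adjusted p = 0.48) and for FOSL2 1.33 ± 0.38 (adjusted p = 0.383). Without the DOHH2 24 h libraries no member was called at 1, 3 or 6 h either, where 0.45, 4.83 and 5.97% of features were. At 24 h JUN (-1.39 ± 0.23, adjusted p = 8.9e-05), FOSL2 (-1.36 ± 0.38, adjusted p = 0.00888) and JUND (0.84 ± 0.23, adjusted p = 0.00667) were called, with 32.6% of features. These 3 values include the DOHH2 24 h libraries, each nearer to a library of the other label than to its duplicate. Whether labels were swapped was not tested. JUND was not called without the DOHH2 library DMSO replicate 1 (0.54, adjusted p = 0.0668) or CSKi replicate 1 (0.45, adjusted p = 0.0559). FOSL2 was not called without TMD8 CSKi replicate 1 (-1.14, adjusted p = 0.0533) or DOHH2 CSKi replicate 1 (-1.15, adjusted p = 0.0535).

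Across the 16 TMD8 libraries, the 3 tested features most like each member by Pearson r are given as a description, since these libraries share line, treatments and times. For JUN they were PHLDA1 (0.975), HNRNPF (0.972) and SLC20A1 (0.966). For JUND they were P2RX5 (0.96), GPSM3 (0.956) and SNX20 (0.956), and for FOSL2 SETD7 (0.91), POGK (0.908) and RNF183 (0.897). For JUNB they were ZNF295 (0.892), NAB2 (0.885) and LOC284889 (0.87), and for ATF3 NRD1 (0.889), ANPEP (0.86) and OMA1 (0.853). Among the members, FOSL2 and JUN had r = 0.75 and JUN and JUND r = -0.492 over the same 16 libraries.

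Among other bZIP genes, which pair with or compete with AP-1 proteins, BATF, BATF3, MAFK and JDP2 were called in TMD8. Of 13 tested, none was called at 1 h, 1 was higher and 2 lower at both 3 and 6 h, and 1 was higher and 4 lower at 24 h (median -0.06, against 0.02 over all features). The share of all features called was 0.05% at 1 h, 4.73% at 3 h, 12.6% at 6 h and 54% at 24 h, so 5 of 13 at 24 h is not above the background. BATF, a JUN partner of lymphocytes, was lower at 3 h (-0.26 ± 0.06, adjusted p = 0.0139) and 2.12-fold lower at 24 h (-1.09 ± 0.06, adjusted p = 3.76e-13). BATF3 was 2.21-fold lower at 24 h (-1.15 ± 0.14, adjusted p = 2.49e-07), and the small MAF gene MAFK was lower at 3 h (-0.37 ± 0.10), 6 h (-0.43 ± 0.10) and 24 h (-0.51 ± 0.10). JDP2, which dimerizes with JUN proteins and represses AP-1 sites, was higher at 3 h (0.30 ± 0.07, adjusted p = 0.00977) and 6 h (0.48 ± 0.07, adjusted p = 1.85e-05) in TMD8 and 1.75-fold lower at 3 h in DOHH2 (-0.81 ± 0.15, adjusted p = 0.0114). The difference between the lines was called for JDP2 at 3 h (1.11 ± 0.17, adjusted p = 0.000743) and 6 h (0.66 ± 0.17, adjusted p = 0.0367). In DOHH2, 1 of 13 was lower at 1 h, the stress factor gene NFE2L2 (-0.35 ± 0.06, adjusted p = 0.0112), and 1 at 3 h, JDP2. Over all features, 0.375% were called in DOHH2 at 1 h and 2.62% at 3 h.

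**Figure D5:**
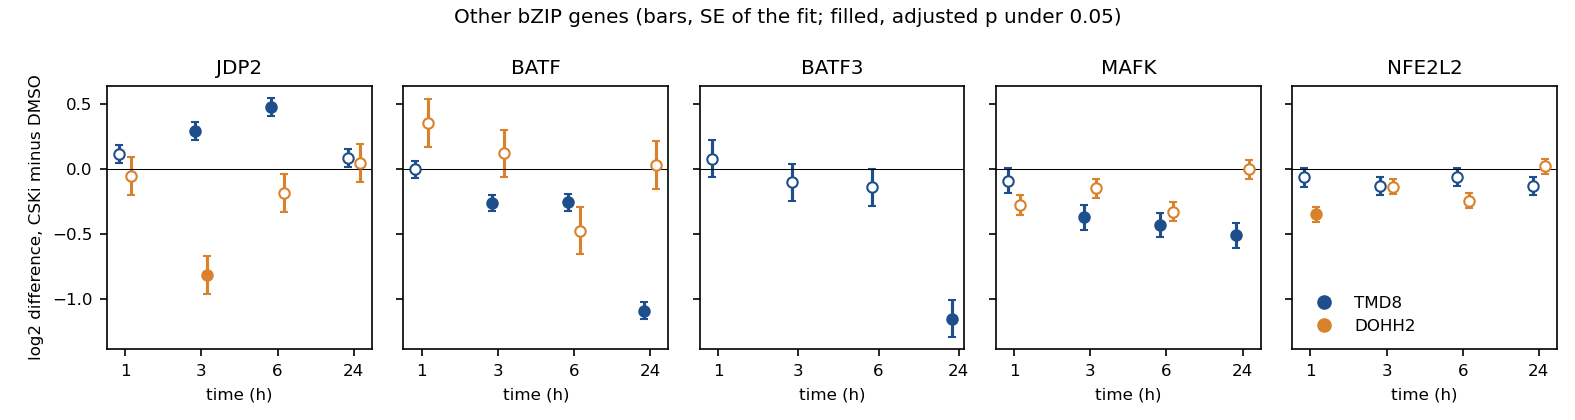
Log2 difference between CSKi and DMSO (vertical axis) against time in h for 5 bZIP relatives, named as the called genes with the largest differences, in TMD8 (blue) and DOHH2 (orange, BATF3 not tested there). Bars are the SE of the fit and filled points passed an adjusted p under 0.05; JDP2 lies at 0.30 in TMD8 and at -0.81 in DOHH2 at 3 h.

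Of 15 MAP kinase pathway genes tested in TMD8, none was called at 1, 3 or 6 h, where 0.05, 4.73 and 12.6% of all features were. At 24 h 4 were higher and 1 lower (median 0.03), where 54% of all features were called. RPS6KA1, which encodes the kinase RSK1, was 1.36-fold higher at 24 h in TMD8 (0.44 ± 0.05, adjusted p = 1.75e-07). It was lower in DOHH2 at 3 h (-0.39 ± 0.06, adjusted p = 0.00334) and 6 h (-0.32 ± 0.06, adjusted p = 0.018). There it was the 1 gene of 14 called at each time, where 2.62 and 0.883% of all features were. Of 6 genes for SRF and its cofactors, 2 were lower at 3 h in TMD8, the ternary complex factor gene ELK3 (-0.39 ± 0.11, adjusted p = 0.031) and SRF (-0.17 ± 0.05, adjusted p = 0.0356). None of the 6 was called at 6 h (medians -0.08 at 3 h and -0.01 at 6 h), and 2 were higher and 2 lower at 24 h, against 4.73, 12.6 and 54% of all features. In DOHH2 none of these 6 was called at 1, 3, 6 or 24 h, where 0.375, 2.62, 0.883 and 0% of all features were.

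Among textbook AP-1 target genes, IL6 and CD69 were lower in TMD8 from 3 h on. Of 10 tested, 1 was higher and 3 lower at 3 h, 1 higher and 4 lower at 6 h, and 3 higher and 6 lower at 24 h (median -0.32, against 0.02 over all features). Over all features 4.73, 12.6 and 54% were called at these times. The cytokine gene IL6 was 3.30-fold lower at 3 h (-1.72 ± 0.25, adjusted p = 3.95e-05) and 4.19-fold lower at 24 h (-2.07 ± 0.25, adjusted p = 1.4e-07). The activation marker gene CD69 was 4.26-fold lower at 3 h (-2.09 ± 0.27, adjusted p = 9.93e-06) and 1.74-fold lower at 24 h (-0.80 ± 0.27, adjusted p = 0.0159). BCL2L11, which encodes the pro-apoptotic BIM, was higher at 3 h (0.28 ± 0.03, adjusted p = 2.23e-07). In DOHH2, 1 of 7 was called, EZR at 3 h (0.26 ± 0.06, adjusted p = 0.0268), where 2.62% of all features were.

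ATF3 is itself a target of ATF4 in the stress response. Of 10 ATF4 and stress genes, 3 were lower at 3 h and 3 at 6 h in TMD8. Those of 3 h were CHAC1 (-0.81 ± 0.20, adjusted p = 0.0158), TRIB3 (-0.38 ± 0.10, adjusted p = 0.0247) and ATF4 (-0.21 ± 0.05, adjusted p = 0.0105). The median of the list at 3 h was -0.20, against 0.01 over all features, and 4.73% of features were called at 3 h and 12.6% at 6 h. ATF3 lay at 9.65 in both CSKi libraries at 3 h against 9.51 and 9.41 in DMSO. At 24 h 2 were higher, DDIT4 (0.99 ± 0.15, adjusted p = 3.03e-06) and DDIT3 (0.69 ± 0.16, adjusted p = 0.000624), and 3 lower, among them the asparagine synthetase gene ASNS (-0.80 ± 0.07, adjusted p = 2.2e-10). These 5 of 10 are near the 54% called over all features. In DOHH2 PPP1R15A, also an early response gene, was 1.45-fold lower at 1 h (-0.53 ± 0.07, adjusted p = 0.00188), the time at which JUNB was. PPP1R15A was the 1 gene of 10 called there, where 0.375% of all features were.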

How the data were processed

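Libraries were TruSeq stranded mRNA, per the labels. The build hg19 and the counter HTSeq are named in the submitters' processing notes, and for the aligner, the HTSeq version and the strand setting nothing is stated in the sources used. The values the authors deposited are log2 of reads times a factor of each library, with 0 for no reads, as the values show. Dividing by the value of 1 read (1.0642 to 2.2485 normalized reads) turned 99.56 to 100% of values of at most 300 reads into whole reads (tolerance 0.1 reads). The row of mapped totals was not tested as a feature and did not enter the main fits. It gave the RPM scale and the library sizes for the alternatives of voom and total read scaling.

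Log2 values were fitted by limma 3.58.1 (R 4.3.3) as a mean per group (eBayes with a trend, two-sided tests, Benjamini-Hochberg adjustment over 12000 features). Each line had its own fit of 16 libraries, leaving 8 residual degrees of freedom, and line differences came from all 32, leaving 16. The lowest mean tested was 20.6 reads per library in TMD8, 14.5 in DOHH2 and 15.3 over both. Log2 folds of low genes and genes at 0 depend on the deposited scale. Changes over time were tested by F tests against 1 h. Vehicle levels used GENCODE v29 transcript lengths matched by the deposited accession for 8 of 8 members. Promoter sequences are RefSeq's, and the overlaps of genes come from GENCODE v29 gene positions. The fitting code was tested on simulated data. Tables and plots used pandas 2.3.3 and matplotlib 3.10.9 in Python 3.11.15.

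The members and gene lists were chosen with earlier results of these data known. All members are named. Genes named from a list are among its 3 called genes of largest difference in a contrast, and not all of those are named. Alternatives were all features with a read, the 9000 highest, a pseudocount of 1, no variance trend, voom, quantile and total read scaling, a replicate block, other sets of libraries and leaving out each library. The crossed pairing of the DOHH2 24 h libraries was chosen after the data were seen.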

Additional observations from a re-analysis of the deposited data

Results flagged for a closer look

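The responses of the lines differed at 24 h by a test of the difference itself for 3 members, JUN (TMD8 minus DOHH2, log2 -1.393), FOSL2 (-1.359) and JUND (0.841). The 4 DOHH2 libraries at this time lie nearer to the other label than to their duplicates, and their part in these values was not tested. In TMD8 alone the responses were -1.18 for JUN, -0.90 for FOSL2 and 0.83 for JUND.

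FOSL1 was singled out because both CSKi libraries lay above both DMSO libraries in TMD8 at 1 h and below them in DOHH2. It had 5 and 4 reads against 4 and 4 in TMD8 and 2 and 2 against 8 and 4 in DOHH2. In the fit of all features with a read the difference between the lines was 1.69 (adjusted p = 0.965), which did not pass.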

How the results depend on the processing

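Of the counts of members called under alternatives, leaving out a library aside, 135 stayed within 1.5 times the reported count and 18 did not. TMD8 at 3 h had 0 of its 1 member with all 32 libraries. TMD8 at 6 h had 1 with all features and 0 with all 32 libraries, against 2. TMD8 at 24 h had 3 with the 4 libraries compared, against 5. DOHH2 at 1 h had 2 with the 4 libraries compared, with all 32 and without the 24 h libraries, against 1. DOHH2 at 3 h had 1 with total read scaling and 2 with the 4 libraries compared or without the 24 h libraries, against 0. DOHH2 at 6 h had 1 with the 9000 highest features, voom or all 32 libraries and 2 with the 4 libraries compared or without the 24 h libraries, against 0. DOHH2 vehicle over time had 1 with the 9000 highest features or no trend and 6 without the 24 h libraries, against 3. The cause was not tested. Over all features, the fit without the 24 h libraries called 2.05, 14.5 and 13.6% in DOHH2 at 1, 3 and 6 h. The main fit called 0.375, 2.62 and 0.883%. For DOHH2 vehicle over time the shares were 52.9 and 29.3%. With all features 5.69% were called in TMD8 at 6 h, against 12.6%. Other shares are not given here, so these counts are not read as results about the members.

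Uncalled values changed sign for FOSB in DOHH2 at 6 h (-0.055, quantile), JUNB and JUND in DOHH2 at 24 h (0.003 and 0.021, voom), FOSL2 between the lines in vehicle (-0.109, quantile, and -0.059, without 24 h libraries) and JUN in TMD8 vehicle at 6 h (0.020, total read scaling).

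Leaving out 1 library gave 1 to 1 members at 6 h and 2 to 5 at 24 h in TMD8, 2 to 4 for the TMD8 response over time, 1 to 3 for the difference of the lines at 24 h and 0 to 4 for DOHH2 vehicle over time. These counts too are given without the share of all features and are not read as results about the members. Leaving out 1 library turned the sign of uncalled values. In TMD8 these were JUND at 1 h (-0.071 to 0.008) and 3 h (-0.040 to 0.076), JUN in vehicle at 6 h (-0.044 to 0.032) and the JUNB response at 24 h minus 1 h (-0.007 to 0.247). In DOHH2 at 3 h they were FOSB (-0.675 to 0.230), FOSL2 (-0.476 to 0.255), JUN (-0.164 to 0.242) and ATF3 (-0.146 to 0.269). At 6 h they were FOSB (-0.432 to 0.454) and JUN (-0.290 to 0.275). At 24 h they were FOSB (-0.327 to 1.960), JUNB (-0.039 to 0.029), JUND (-0.404 to 0.384) and ATF3 (-0.385 to 0.418). Between the lines they were FOSL2 (-0.054 to 0.677), JUNB (-0.053 to 0.116) and ATF3 (-0.083 to 0.332) at 3 h, FOSL2 (-0.366 to 0.000) and JUND (-0.064 to 0.045) at 6 h, and ATF3 (-0.586 to 0.217) at 24 h.

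Replicate numbers did not pair the samples (correlation of deviations -0.005 to 0.166 in TMD8 and 0.027 to 0.049 in DOHH2 before 24 h, -0.476 at 24 h). With the replicate block 4 members were called in TMD8 at 24 h, ATF3 being lost (-0.169, adjusted p = 0.0513), and 2 in DOHH2 vehicle over time, JUNB being lost (adjusted p = 0.0504), and no other count of members called changed. For the crossed pairing, a fit kept the labels of the DOHH2 24 h libraries and added a term for the crossed pairs. It called 0 of 12000 features. If labels were swapped, that term would take up the treatment difference, so nothing is concluded from this count. The filter by rank of mean level kept FOS and FOSL1 out of the main test in both lines, and FOSB in TMD8.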
